A study of Mus musculus with 18 samples.

Results

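Separate mock and DMBA/TPA-treated groups of mice that lack Zfp36 in the epidermis (Zfp36ΔEP, the ΔK14 condition of the labels) were compared. The question was which expression differences go with the treatment in skin that has not become a tumor. Of 17 distinct samples in the series, 5 belong to this comparison: 3 samples of treated Zfp36ΔEP skin and 2 of mock Zfp36ΔEP skin. A further mock column was identical to mock replicate 2 in every gene and was counted with it as 1 sample. All genes with enough counts in these 5 samples were tested, which left 15891 of 52636 genes.

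Both groups carried 2 loxP-flanked Zfp36 alleles on a C57BL/6 background and a Cre transgene under the human keratin 14 promoter, so that the gene is lost in keratinocytes and their descendants but not in other cells. Treated mice, 8 weeks old at the start, had received 200 nmol DMBA on days 0 and 3 and repeated doses of 6.5 nmol TPA from day 14, and their samples came from skin next to papillomas. The labels call these cells "treated tumoral keratinocytes", while the methods describe them as cells of adjacent skin. Mock mice had the same genotype and the same age of 8 weeks at the start, without the carcinogen. What was applied to their skin was not stated. Epidermal cells had been sorted from both kinds of skin as EpCAM+ CD45- CD140a- CD31-. Littermates with intact Zfp36fl/fl alleles (3 mock, 3 treated), also 8 weeks old at the start, are given beside the results as a reference. Nothing in the labels says that replicates were separate animals, so p-values measure the spread between these samples, which may be technical.

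TTP (tristetraprolin), the product of Zfp36, attaches to AU-rich elements in the 3′ ends of short-lived mRNAs and speeds their decay. In the DMBA/TPA model, the mutagen DMBA starts clones of altered keratinocytes and the phorbol ester TPA, an activator of protein kinase C, promotes their growth through repeated inflammation and hyperplasia. Epidermis that is wounded, inflamed or hyperplastic typically switches on keratins 6, 16 and 17, the calcium-binding alarmins S100A8 and S100A9, small proline-rich proteins and serpins, a set of genes referred to here as activated epidermis.

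Zfp36 (chr7:28376784-28380253, minus strand, mm10) was low in all Zfp36ΔEP samples. Its level was 18.7 and 42 CPM (counts scaled to library size) in the 2 mock samples and 28.8, 32.4 and 16.3 CPM in the 3 treated samples. In Zfp36fl/fl epidermis it was 152, 716 and 622 CPM in mock and 368, 505 and 256 CPM in treated samples, so the genotypes did not overlap. The log2 difference between treated and mock Zfp36ΔEP skin was -0.23 ± 0.46 (SE; edgeR quasi-likelihood test, unadjusted p = 0.64). The paralogs, which bind the same elements, did not separate the groups either. Zfp36l1 was at 582 and 328 CPM in mock and at 375, 273 and 329 CPM in treated samples, and Zfp36l2 at 152 and 384 against 126, 156 and 263 CPM. Zfp36l3 was listed at 0 in all 5 samples.

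The mock samples stood apart from each other before any treatment was considered. Total counts were 3569609 and 2973405 in the mock and 4786594, 6407008 and 5567614 in the treated samples. Among the genes tested, 5256 (33.1%) differed more than 2-fold between the mock samples, against 10.1% to 18% between pairs of treated samples. Mock replicate 1 differed more than 2-fold from treated replicate 1 in 8.6% of genes, fewer than any pair within a group. Keratins of the inner root sheath and hair shaft, such as Krt25, Krt71 and Krt35, were high in mock replicate 1 and nearly absent from mock replicate 2, and interfollicular keratins showed the reverse order. The gap recurred in the control genotype: of 2350 genes over 2-fold higher in mock Zfp36ΔEP replicate 1 than in replicate 2, 92.2% were also higher in mock Zfp36fl/fl replicate 1 than in the mean of the other two. The part of this gap in each result was not tested, and medians of gene lists are given against both mock samples and, over the same members, against each alone.

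**Figure D1:**
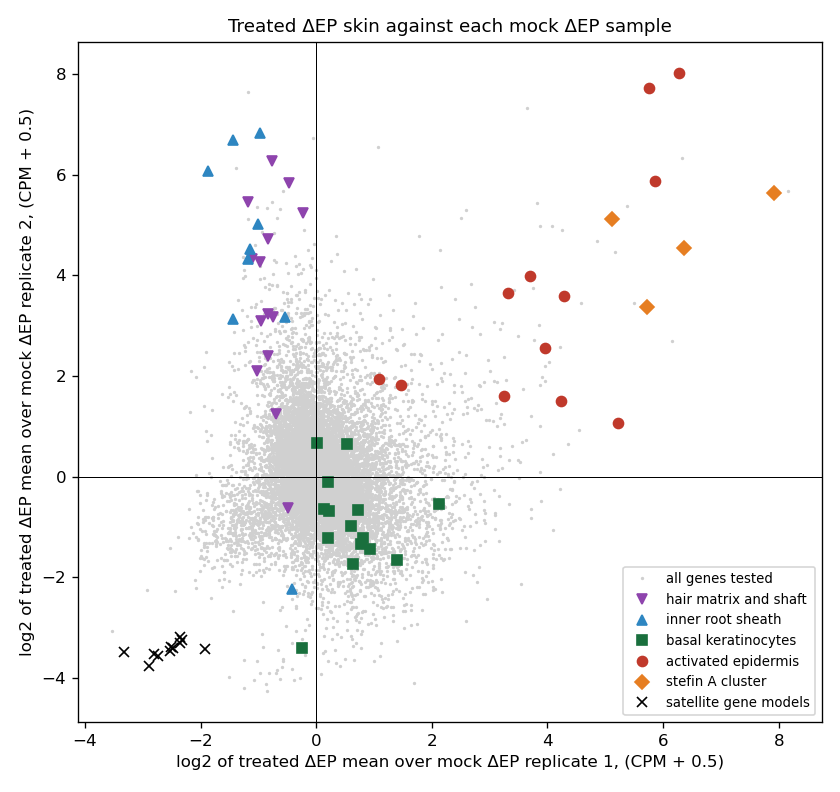
Each point is a gene tested, placed by the log2 ratio of the mean of the 3 treated Zfp36ΔEP samples to mock replicate 1 (x axis) and to mock replicate 2 (y axis), after adding 0.5 CPM. Activated epidermis and stefin A genes lie above 0 on both axes and satellite gene models below 0 on both, while inner root sheath and hair matrix genes are mostly below 0 on the x axis and above 0 on the y axis.

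No gene passed an adjusted p under 0.05 with a fold change over 2 in the test of treated against mock Zfp36ΔEP skin (0% of 15891 genes; edgeR quasi-likelihood test, Benjamini-Hochberg adjustment, smallest adjusted p = 0.701). At an unadjusted p under 0.05 there were 763 genes, 228 higher in treated skin (1.43%) and 535 lower (3.37%). The 3 treated samples lay wholly above the 2 mock samples in 1221 genes (7.68%) and wholly below in 1349 (8.49%). An exact permutation test of 3 against 2 samples cannot give a two-sided p under 0.2. On the same counts DESeq2's Wald test called 71 genes and edgeR's exact test called 67, with 52 called by both. Each difference below is therefore a value with its error and not a call, and its unadjusted p is given only to rank it.

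Genes of activated epidermis were higher in treated skin. All 12 tested members of the list (of 18) had higher values after treatment, 9 of them without overlap between the groups against the 7.68% of all genes, and the median log2 difference was 3.32, against -0.00152 over all genes tested. Over the same 12 members it was 3.16 against mock replicate 2 alone and 4.78 against mock replicate 1 alone. Only 5 of the 12 (Krt6a, Krt6b, Krt16, Krt17 and Sprr1a) reached the low-count filter in the mock samples themselves. The others passed through the treated samples, where they are high, so they had to be higher there. Those 5 had a median of 2.21 and 4 of them did not overlap, against 6.4% of all genes that reached the filter in mock samples. The study had picked 3 of the 12 (S100a8, S100a9 and Serpinb3a) on these samples, so their direction is not independent.

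Krt6a (chr15:101689910-101694307, minus strand), a keratin that suprabasal cells make within hours of wounding, was at 40.9 and 32.6 CPM in mock skin and at 159, 535 and 549 CPM in treated skin. The means were 36.7 ± 5.85 (SD, n = 2) and 414 ± 221 (SD, n = 3). All 3 treated samples lay far above both mock samples, an 11.3-fold difference (log2 3.49 ± 0.64 SE, edgeR quasi-likelihood test, unadjusted p = 0.00118). Its neighbour Krt6b (chr15:101676023-101680287, minus strand), of near-identical sequence, was at 7.59 and 20.8 CPM in mock and 48.9, 172 and 153 CPM in treated samples (log2 3.15 ± 0.73). Because the keratin 6 copies share sequence, how reads were divided between them is uncertain. Krt17, another wound keratin that in intact skin is made in follicles, was already abundant in mock skin at 561 and 310 CPM and was at 858, 1471 and 1253 CPM after treatment (log2 1.45 ± 0.42). The partner of the keratin 6 proteins, Krt16, had 37.4 and 119 CPM in mock and 104, 376 and 602 CPM in treated samples (log2 2.21 ± 0.84). Here treated replicate 1 fell below mock replicate 2, so the groups overlapped.

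S100a8 and S100a9 encode the subunits of calprotectin, which binds metal ions and calls in leukocytes. S100a8 (chr3:90668978-90670035) had 1.17 and 0 CPM in mock skin, that is 4 and 0 counts, and 35.5, 82.5 and 267 CPM in treated skin. S100a9 (chr3:90692632-90695721) had 1.46 and 0 CPM in mock and 26.1, 53.5 and 237 CPM in treated samples. Treated replicate 3 held the most of both and replicate 1 the least, and the order of the 3 samples was the same for the pair. The fitted log2 differences were 7.57 ± 1.39 and 6.98 ± 1.49, with unadjusted p-values of 0.00124 and 0.00282 in the edgeR quasi-likelihood test. They rest on a handful of mock counts, and with mock replicate 1 left out, when the mock count is 0, the fit gave 12.3 and 12.05.

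The small proline-rich proteins are cross-linked into the cornified envelope, the protein shell of dead surface cells. Sprr1a was at 25.4 and 19.6 CPM in mock and at 39.0, 85.2 and 88.7 CPM in treated samples (log2 1.65 ± 0.44). Sprr1b had 0.58 and 0.39 CPM in mock and 6.18, 11.1 and 23.6 CPM in treated samples, a ratio of 26.9 (95% counting interval 9.11 to 132). Lcn2, the iron-withholding lipocalin 2, had 0.29 and 0.79 CPM in mock and 4.44, 14.1 and 26.5 CPM in treated samples, a ratio of 30.1 (10.2 to 147). None of these genes overlapped between groups. Serpinb3a, a serpin that inhibits serine and cysteine proteases, had no count in either mock sample and 8.50, 8.09 and 69.5 CPM after treatment, at least 27.9-fold higher against a floor of 3 counts per sample. Its paralog Serpinb3b (0.29 and 13.7 against 6.96, 24.0 and 56.6 CPM) and Il1f9, the gene of the cytokine IL-36γ (0.58 and 6.67 against 2.90, 7.95 and 48.6 CPM), were high in 1 mock sample and overlapped. Intervals of this kind cover counting error only.

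**Figure D2:**
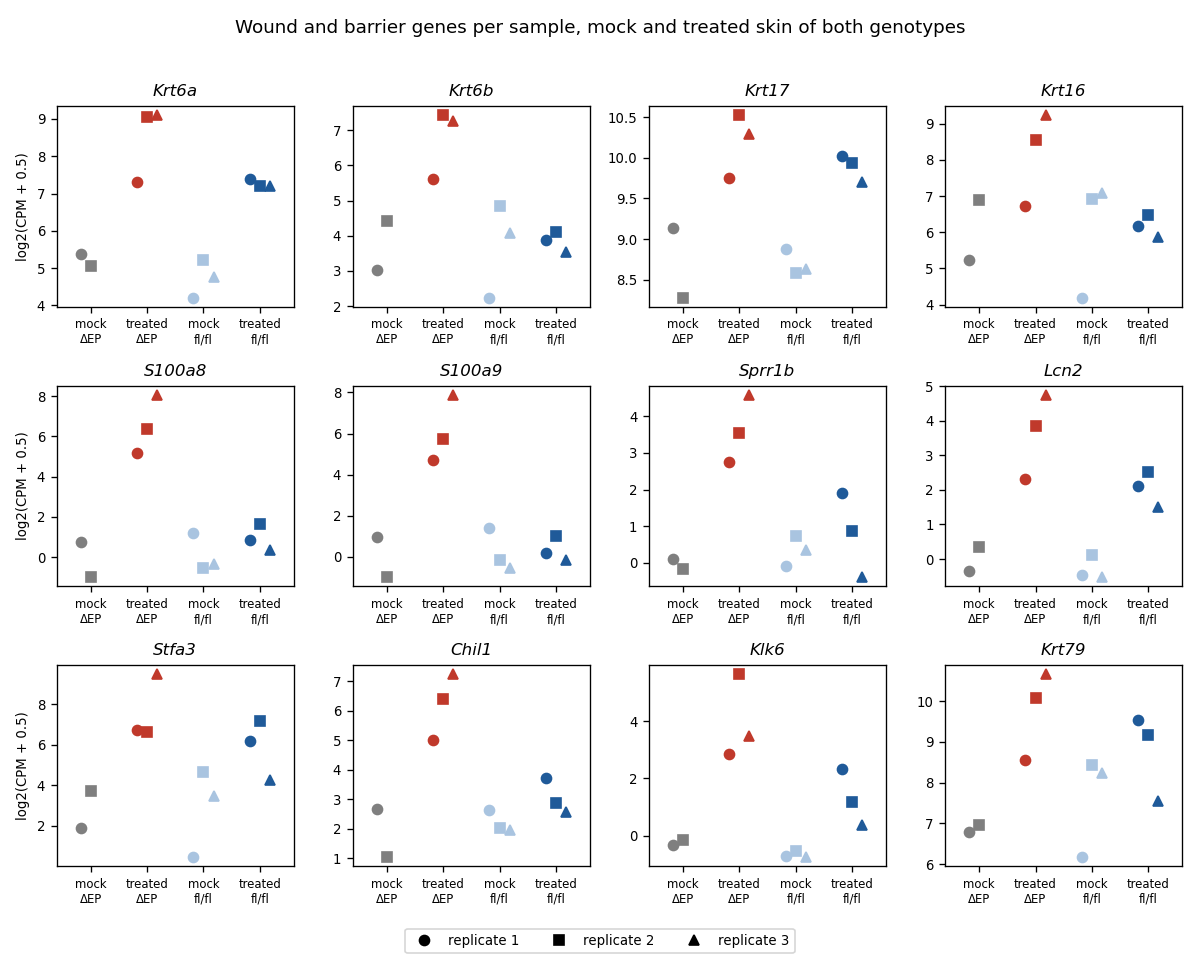
Levels of 12 genes, as log2(CPM + 0.5), in each mock and treated sample of Zfp36ΔEP (grey and red) and Zfp36fl/fl epidermis (light and dark blue), with marker shapes for replicates. In Zfp36ΔEP skin the treated samples lie above the mock samples in all 12 genes except Krt16, where they overlap. Treated Zfp36fl/fl samples lie above their mock samples in Krt6a, Krt17, Lcn2 and Klk6, and within or near the range of mock for S100a8, S100a9, Krt6b and Krt16.

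Chil1 and Klk6 complete the 5 genes that the study names for treated skin, all 5 of which were higher without overlap (7.68% of all genes). Of the 5, 0 reached the low-count filter in the mock samples themselves. Chil1, a secreted chitinase-like protein, was at 5.84 and 1.57 CPM in mock and 31.9, 83.6 and 151 CPM in treated samples (log2 4.53 ± 0.89, edgeR quasi-likelihood test, unadjusted p = 0.0018). Klk6, a secreted serine protease, had 0.29 and 0.39 CPM in mock and 6.76, 49.5 and 10.7 CPM in treated samples, a ratio of 74.6 (counting interval 20.5 to 618). In papillomas of the same genotype Chil1 was at 7.83, 2.18 and 3.61 CPM, below all 3 treated samples. S100a8 was at 816, 820 and 570 CPM in those papillomas and Krt6a at 2948, 3111 and 2933 CPM, above all 3 treated samples. These comparisons with tumors were chosen after the values were seen and were not tested.

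A cluster of stefin A genes on chromosome 16, which encode small inhibitors of cysteine proteases, showed some of the largest differences. This list of 9 genes was made after the values were seen. All 4 tested members were higher without overlap (7.68% of all genes). Their median log2 difference was 5.92 (4.79 with the member absent from mock skin set at its bound). It was 5.17 against mock replicate 2 and 7.46 against mock replicate 1. Stfa3 alone reached the low-count filter in the mock samples themselves. BC100530 (chr16:36359382-36367748) was at 1.46 and 9.03 CPM in mock and 174, 296 and 956 CPM in treated samples (log2 6.55 ± 1.20, edgeR quasi-likelihood test, unadjusted p = 0.00125). Stfa3 (chr16:36450537-36455392) was at 3.21 and 12.6 CPM in mock and 105, 97.8 and 711 CPM in treated samples (log2 5.30 ± 1.29). Stfa1 followed with 1.46 and 9.42 against 32.1, 72.7 and 202 CPM. BC117090 had no count in mock skin and 4.44, 12.2 and 33.7 CPM in treated skin, at least 16.4-fold higher. Summed over the cluster, mock samples held 6.42 and 31.0 CPM and treated samples 317, 480 and 1910 CPM. The copies are near identical, so the split between them is uncertain, and the antisense model Gm15845, which overlaps BC100530, cannot be told apart from it because the use of strand was not stated. In Zfp36fl/fl skin the sum was 2.33, 38.5 and 19.0 CPM in mock and 158, 286 and 36.3 CPM in treated samples.

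The AP-1 motif TGANTCA, known as the TPA response element, was looked for in RefSeq promoter windows of 300 bases (GRCm38.p6, 250 bases before to 50 after the start). It is its own reverse complement apart from the middle base, so 1 search covers both strands. The activated epidermis and stefin A lists hold 16 tested genes, of which 10 had a window and 3 of these held the motif, against 7.81% of all 32851 windows. Among genes whose samples did not overlap, 6.28% of those higher and 6.43% of those lower held it, against 6.22% of tested genes with a window. The windows of those 3 genes are shown, together with that of filaggrin, another barrier gene described below, with the motif in capitals. Filaggrin is in neither list and was picked for display, and the share of barrier genes with the motif was not counted. Sprr1a (chr3:92485832-92486131, minus strand) has TGAGTCA beginning 146 and 116 bases before the start, Sprr1b (chr3:92438730-92439029, minus strand) has TGAATCA 111 bases before it, Flg (chr3:93273296-93273595, plus strand) has TGAATCA 103 bases before it, and Stfa3 (chr16:36455343-36455642, minus strand) has TGAGTCA at base 30 of the transcript. A match is a description of the letters and not a bound site.
Sprr1a: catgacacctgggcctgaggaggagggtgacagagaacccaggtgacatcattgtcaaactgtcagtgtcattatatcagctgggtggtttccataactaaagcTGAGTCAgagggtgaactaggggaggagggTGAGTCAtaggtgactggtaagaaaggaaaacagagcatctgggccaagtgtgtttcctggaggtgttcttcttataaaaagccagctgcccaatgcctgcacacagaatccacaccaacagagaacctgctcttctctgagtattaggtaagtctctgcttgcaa
Sprr1b: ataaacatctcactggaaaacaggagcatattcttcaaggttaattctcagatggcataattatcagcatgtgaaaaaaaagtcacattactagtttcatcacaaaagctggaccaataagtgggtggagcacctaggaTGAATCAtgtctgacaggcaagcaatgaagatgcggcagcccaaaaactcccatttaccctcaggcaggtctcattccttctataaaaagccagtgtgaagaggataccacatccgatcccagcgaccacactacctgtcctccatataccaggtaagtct
Flg: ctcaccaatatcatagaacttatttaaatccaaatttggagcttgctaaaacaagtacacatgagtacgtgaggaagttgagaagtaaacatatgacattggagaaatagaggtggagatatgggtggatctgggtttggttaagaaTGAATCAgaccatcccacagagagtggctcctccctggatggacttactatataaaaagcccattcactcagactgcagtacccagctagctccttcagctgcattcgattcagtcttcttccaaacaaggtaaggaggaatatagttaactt
Stfa3: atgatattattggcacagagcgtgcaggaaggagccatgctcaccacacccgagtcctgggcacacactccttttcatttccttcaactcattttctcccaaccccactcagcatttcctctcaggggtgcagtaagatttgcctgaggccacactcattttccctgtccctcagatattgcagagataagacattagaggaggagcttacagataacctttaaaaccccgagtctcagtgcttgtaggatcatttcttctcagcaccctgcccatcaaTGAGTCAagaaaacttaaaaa

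Barrier genes were split between higher, overlapping and, in 1 case, lower values in treated skin. Of 28 tested genes of the epidermal differentiation complex (of 74 in the chromosome 3 cluster), 17 had higher values after treatment, 10 of them without overlap (7.68% of all genes), and 1 was lower without overlap (8.49% of all genes). The 10 include S100a8 and S100a9, which the study had picked, and without these the count was 8 of 26 and the median 0.26. With them the median log2 difference was 0.42, and 2.11 and 0.95 against mock replicates 2 and 1 alone. The 12 members that reached the low-count filter in mock samples themselves had a median of -0.18, with 3 higher without overlap. Flg, which encodes filaggrin, the protein that bundles keratin in the granular layer, had 1.17 and 0.39 CPM in mock and 4.06, 22.0 and 57.1 CPM in treated samples (log2 5.03 ± 1.35). Ivl, the envelope protein involucrin, was at 11.1 and 5.10 CPM in mock and 13.3, 28.4 and 23.0 CPM in treated samples (log2 1.40 ± 0.50). Both peptidoglycan recognition proteins of the cluster, which bind bacterial walls, lay on opposite sides. Pglyrp3 had 0.58 and 1.96 CPM in mock and 4.25, 13.3 and 8.34 CPM in treated samples, whereas Pglyrp4 had 7.59 and 36.1 CPM in mock and 1.16, 6.39 and 3.63 CPM in treated samples. Rptn, encoding the envelope protein repetin, had no count in mock skin and 0.77, 4.26 and 4.17 CPM after treatment, at least 2.99-fold higher. Lor, the gene of the main envelope protein loricrin, overlapped, with 1.17 and 3.53 against 2.32, 0.28 and 0.73 CPM. Rptn and Pglyrp3 are outside the naming rule and were chosen after their values were seen.

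Suprabasal differentiation genes outside and inside that cluster gave 16 of 25 tested members higher, 8 without overlap (7.68% of all genes). The median was 0.57. It was -0.33 against mock replicate 2 alone and 1.92 against mock replicate 1 alone, so its direction depended on the mock sample. The 20 members that reached the low-count filter in mock samples themselves had a median of 0.16. Of those 20, 5 were higher without overlap (25%, against 6.4% of all genes that reached it). Calml3, a calmodulin-like protein of differentiating keratinocytes, was at 17.5 and 15.7 CPM in mock and 32.6, 69.1 and 112 CPM in treated samples (log2 2.10 ± 0.55), and it differed from both mock samples alike. Klk7, a protease that releases corneocytes, was at 18.1 and 2.36 CPM in mock and 45.4, 174 and 114 CPM in treated samples. Dsc1, a desmosomal cadherin of upper layers, was at 66.0 and 37.3 against 86.9, 170 and 359 CPM, and the envelope cross-linker Tgm1 at 10.8 and 4.71 against 12.2, 25.3 and 26.5 CPM. In the opposite direction stood Krt77, a keratin of intact suprabasal skin, with 313 and 2457 CPM in mock and 49.3, 290 and 106 CPM in treated samples (log2 -3.22 ± 1.01). The main suprabasal pair showed no separation: Krt1 was at 150 and 3286 against 931, 1398 and 6018 CPM, and Krt10 at 416 and 4640 against 867, 994 and 4125 CPM.

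Several further genes were higher after treatment without overlap. They were named by rules that pick on these same values, so their separation is no independent evidence. Krt79, a keratin of the cells that line the opening of the follicle, was at 111 and 124 CPM in mock and 376, 1082 and 1619 CPM in treated samples (log2 3.13 ± 0.67). It belongs to the upper follicle list of 6 tested genes, whose median of 0.79 was 0.13 against mock replicate 2 and 2.23 against mock replicate 1. Krt79 was 1 of 2 members of this list that were higher without overlap (7.68% of all genes). The other was Defb6, a beta-defensin, with 48.4 and 138 against 193, 371 and 487 CPM. Slc5a1, the sodium-glucose cotransporter SGLT1, was at 1.17 and 3.14 CPM in mock and 15.3, 41.6 and 60.6 CPM in treated samples (log2 4.22 ± 0.80). Rassf10, a Ras-association domain protein, was at 7.004 and 6.67 against 17.4, 24.6 and 33.9 CPM. Rnase2b, a member of the ribonuclease A superfamily, had no count in mock skin and 16.2, 28.7 and 73.7 CPM after treatment, at least 38.5-fold higher. Slc5a1 and Rnase2b did not reach the low-count filter in the mock samples themselves and passed through the treated samples, where they are high.

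Chosen after their values were seen were Cst6, Gsdmc, Endou, Pla2g4e and Igfl3. Cst6, the cysteine protease inhibitor cystatin E/M of the barrier, was at 32.1 and 68.7 CPM in mock and 125, 276 and 204 CPM in treated samples (log2 2.00 ± 0.50). Gsdmc, of the pore-forming gasdermin family, was at 0.29 and 8.24 against 18.2, 58.4 and 91.1 CPM. Endou, a uridylate-specific endoribonuclease, was at 9.92 and 4.32 against 25.1, 41.2 and 98.1 CPM. None of these overlapped between groups. Igfl3 had 0 and 1.57 CPM in mock and 6.18, 27.1 and 33.2 CPM in treated samples, and the phospholipase gene Pla2g4e had 0.88 and 2.36 against 6.18, 21.6 and 26.7 CPM. Gsdmc, Igfl3 and Pla2g4e did not reach the low-count filter in the mock samples themselves. They passed through the treated samples, where they are high, so their direction is no independent evidence.

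Leukocytes also make calprotectin, lipocalin 2 and, in the case of neutrophils, stefin A proteins, so their markers are given beside these genes. In bulk samples a change in the share of a cell type and a change in RNA per cell cannot be told apart. Neutrophil genes, a list of 11 added after seeing the data, were all too low to test and summed to 0.58 and 1.18 CPM in mock and 1.16, 2.98 and 7.62 CPM in treated samples, most of the last from Cxcr2 at 5.99 CPM. Ly6g was at 0 except for 0.18 CPM in treated replicate 3, and Ltf, Retnlg and Fcnb were at 0 in all 5 samples. The summed leukocyte list of 12 genes gave 8.46 and 29.4 CPM in mock and 17.4, 22.3 and 11.6 CPM in treated samples. Its pan-leukocyte gene Ptprc (CD45) was at 0 in mock and 0.39, 0.28 and 0.54 CPM in treated samples, and Lyz2 at 0 and 2.36 against 0.58, 0.14 and 0.18 CPM. The 5 Langerhans cell genes summed to 11.7 and 39.3 CPM in mock and 14.5, 26.5 and 301 CPM in treated samples. Treated replicate 3 alone was high in the antigen-presentation gene Cd74 (185 CPM) and in H2-Ab1 and H2-Eb1 (37.7 and 36.1 CPM), while Cd207, the defining Langerhans gene, was at 0 there. The same replicate held the most S100a8, S100a9 and stefin A counts, and the part of these genes in that order was not tested.

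Genes of the inner root sheath and of the hair matrix and shaft took opposite signs against the 2 mock samples. For 9 tested inner root sheath genes the median log2 difference was -0.23 against both mock samples, 4.81 against mock replicate 2 alone and -1.10 against mock replicate 1 alone. Krt25, an inner root sheath keratin, was at 689 and 1.96 CPM in mock and 409, 214 and 134 CPM in treated samples. Krt71 of the same layer was at 508 and 1.57 against 228, 111 and 76.2 CPM. Hair matrix and shaft genes (14 tested, median -0.04) moved likewise, from 4.31 against mock replicate 2 to -0.81 against mock replicate 1. Melanocyte genes (9 tested) gave 2.64 and -0.86, with Dct at 106 and 14.1 against 131, 19.9 and 20.7 CPM, and hedgehog pathway genes (7 tested) 1.64 and -0.20. Proliferation showed the same split: the median over 30 genes was 0.22, but 1.27 against mock replicate 2 and -0.26 against mock replicate 1. Mki67, the Ki-67 antigen of cycling cells, was at 866 and 90.7 CPM in mock and 457, 404 and 547 CPM in treated samples. Top2a was at 460 and 162 against 507, 318 and 364 CPM. No direction can be given for these groups from these samples. Follicle stem cell genes differed from this pattern, with a median over 12 tested genes of 0.40, which was 0.67 against mock replicate 2 and 0.56 against mock replicate 1. Of these, 2 were higher without overlap (7.68% of all genes).

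Basal keratinocyte genes behaved as the mirror image, with a median over 15 tested genes of -0.39, of -0.96 against mock replicate 2 and of 0.64 against mock replicate 1. Krt5 was at 1574 and 8141 CPM in mock and 1537, 2527 and 4983 CPM in treated samples. Krt14, its partner and the source of the promoter that drives Cre, was at 723 and 4607 against 1049, 2712 and 5724 CPM. Krt15, a keratin of resting basal and bulge cells, was at 310 and 2762 CPM in mock and 158, 319 and 310 CPM in treated samples, where the groups overlapped by a narrow margin. The summed basal markers were 5710 and 22800 CPM in mock and 5490, 9170 and 16900 CPM in treated samples, so the labelled keratinocytes carried their defining genes in all 5 samples.

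**Figure D3:**
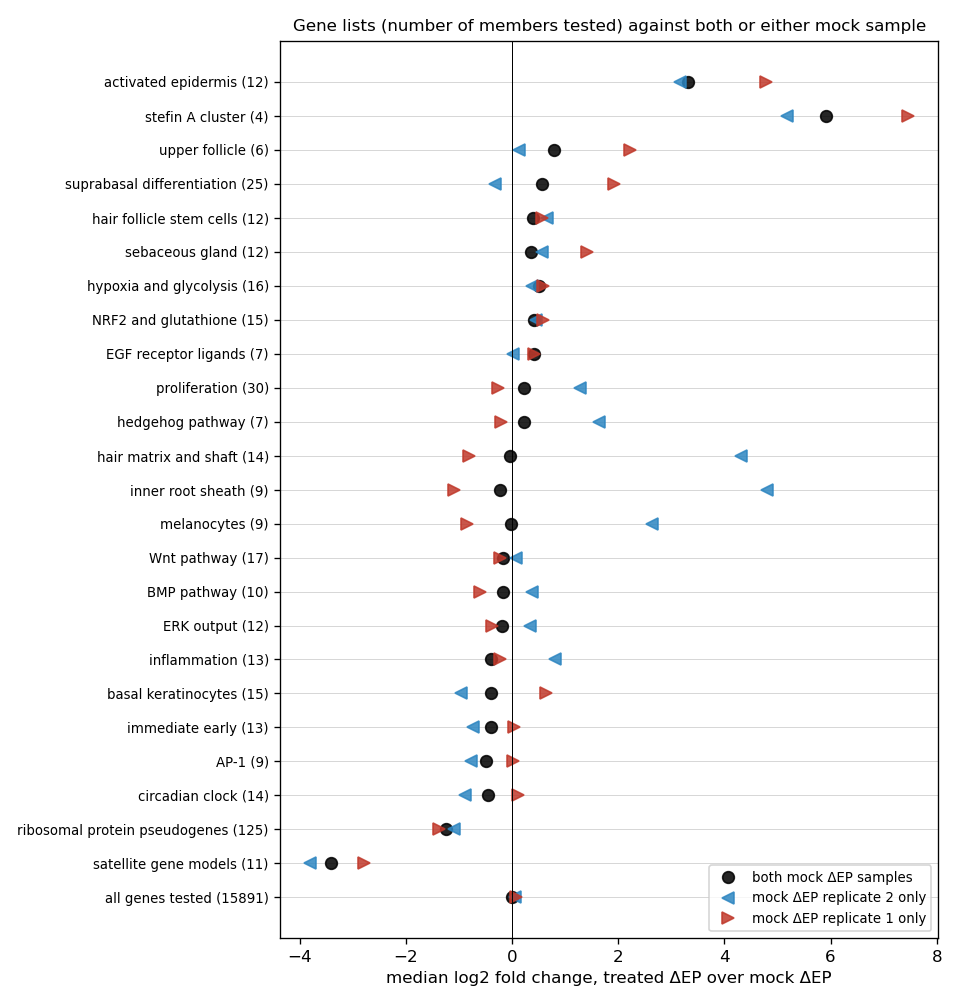
Median log2 fold change of treated over mock Zfp36ΔEP skin for gene lists, with the number of members tested, computed over the same members against both mock samples (circles), mock replicate 2 alone (left-pointing triangles) and mock replicate 1 alone (right-pointing triangles). Activated epidermis (3.32, 3.16 and 4.78), the stefin A cluster, ribosomal protein pseudogenes and satellite gene models lie on one side of 0 against either mock sample, whereas inner root sheath, hair matrix, proliferation and basal keratinocyte lists lie on both sides.

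Growth factor and signalling genes included several with lower values in treated skin. Epgn, the EGF receptor ligand epigen (chr5:91027464-91035215), was at 76.8 and 85.2 CPM in mock and 29.8, 42.7 and 35.0 CPM in treated samples. The means were 81.0 ± 5.97 (SD, n = 2) and 35.8 ± 6.53 (SD, n = 3), a log2 difference of -1.17 ± 0.27 (SE). The gap between groups was several times the spread within either of them, with an unadjusted p of 0.00376 in the edgeR quasi-likelihood test. Other EGF receptor family ligands did not share this direction. Nrg1, neuregulin 1, was at 9.34 and 19.6 CPM in mock and 31.5, 81.6 and 38.8 CPM in treated samples (log2 1.82 ± 0.56). Btc, betacellulin, was at 0.58 and 0.79 against 1.16, 5.96 and 5.26 CPM. Areg, amphiregulin, differed by 0.00 ± 0.43 on the log2 scale, with 18.4 and 18.4 CPM in mock and 9.85, 21.9 and 23.4 CPM in treated samples. Over the 7 tested ligands, 2 were higher and 1 lower without overlap (7.68% and 8.49% of all genes). The median of 0.41 was 0.02 against mock replicate 2 and 0.41 against mock replicate 1. The 6 ligands that reached the low-count filter in mock samples themselves had a median of 0.28. Of those 6, 1 was higher without overlap, against 6.4% of all genes that reached it.

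Some feedback inhibitors of the ERK cascade that lies downstream of this receptor had lower values. Spry1 was at 96.6 and 147 CPM in mock and 74.6, 46.4 and 30.5 CPM in treated samples (log2 -1.27 ± 0.42). Spry2 was at 59.2 and 49.1 against 32.8, 39.9 and 25.4 CPM, and Spred2 at 82.9 and 96.6 against 57.6, 55.4 and 53.5 CPM. These 3 were the members without overlap among 12 tested genes of ERK output (8.49% of all genes were lower without overlap). Other inhibitors of the list lay on the other side with overlap, Spry4 at 0.71, Dusp4 at 0.45 and Spred1 at 0.36 on the log2 scale. The list median was -0.19, and 0.34 against mock replicate 2 and -0.38 against mock replicate 1. In the AP-1 list, the transcription factors that TPA activates, 8 of 9 genes had lower values and 2 did not overlap (8.49% of all genes). The median was -0.49, and -0.78 against mock replicate 2 but 0.02 against mock replicate 1. Fosl1, the FRA-1 subunit, was at 130 and 195.5 CPM in mock and 100, 87.0 and 75.5 CPM in treated samples, and Jund at 182 and 234 against 142, 118 and 144 CPM. The 13 immediate early genes had a median of -0.41, which was -0.74 against mock replicate 2 and 0.04 against mock replicate 1.

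Inflammatory genes had no common direction, unlike the alarmins, and the sign of their median depended on the mock sample. Of 18 listed, 13 were tested, and 4 were lower and 1 higher without overlap (8.49% and 7.68% of all genes). The median was -0.40, and 0.82 against mock replicate 2 and -0.23 against mock replicate 1. Tnfaip3, the NF-κB inhibitor A20, was at 413 and 1055 CPM in mock and 365, 336 and 331 CPM in treated samples. Il23a, a subunit of interleukin 23, was at 16.6 and 6.28 against 5.41, 3.98 and 5.44 CPM. The other 2 lower genes, Nfkbia and Icam1, differed by less than 0.5 on the log2 scale. Ccl2, the monocyte chemokine, was the one on the other side, with 4.67 and 1.96 CPM in mock and 5.80, 17.5 and 6.17 CPM in treated samples. Ccl2 did not reach the low-count filter in both mock samples and passed through the treated samples. Of the p53 pathway genes (13 tested) none separated the groups. Of 6 tested genes (of 9) of the aryl hydrocarbon receptor list, Arnt alone did, at 61.6 and 60.5 against 69.2, 69.6 and 77.3 CPM. Its difference was small (log2 0.24 ± 0.24).

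Lower values were also seen for developmental regulators. Hoxa5 (chr6:52201754-52204587, minus strand), a positional transcription factor, was at 26.6 and 36.5 CPM in mock and 7.15, 9.65 and 8.71 CPM in treated samples. The means were 31.5 ± 7.04 (SD, n = 2) and 8.50 ± 1.27 (SD, n = 3), a 3.69-fold difference (log2 -1.88 ± 0.31 SE), with an unadjusted p of 0.000694 in the edgeR quasi-likelihood test. Its neighbours in the HOXA cluster were Hoxa7, at 42.6 and 77.7 against 14.9, 11.6 and 32.5 CPM, and Hoxa6, at 2.33 and 5.10 against 1.74, 0.85 and 1.63 CPM. Both also stayed below mock in all 3 treated samples. Hoxa6 had 8 and 13 counts in mock and 9, 6 and 9 in treated samples. It reached the low-count filter only in the mock samples, so it had to be lower in treated skin. Hoxa6 is among the lower HOX genes counted next. Over 21 tested HOX genes, a list added after seeing the data, 4 were lower and 0 higher without overlap, against 8.49% and 7.68% of all genes, with a median of -0.46, which was -0.14 against mock replicate 2 and -0.61 against mock replicate 1. Bmp4, a ligand that holds follicle stem cells at rest, was at 73.8 and 71.8 CPM in mock and 38.5, 19.2 and 12.2 CPM in treated samples (log2 -1.65 ± 0.48). Bmp2 was at 41.4 and 56.5 against 33.4, 21.7 and 22.7 CPM. These were the 2 lower without overlap among 10 tested BMP pathway genes (8.49% of all genes), of which 4 had higher values. The BMP median was -0.18, and 0.38 against mock replicate 2 but -0.60 against mock replicate 1.

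Dapl1 (chr2:59484653-59505020), a small protein of epithelial differentiation, was at 72.1 and 170 CPM in mock and 29.2, 24.4 and 25.6 CPM in treated samples. The treated samples agreed closely (26.4 ± 2.48, SD, n = 3) and lay below both mock samples, a 4.59-fold difference (log2 -2.20 ± 0.39 SE, edgeR quasi-likelihood test, unadjusted p = 0.00106). Without mock replicate 2 the log2 difference of Dapl1 was -1.41. Other lower genes were carried still more by that replicate. Cd55, a complement inhibitor, was at 26.6 and 167 CPM in mock and 7.54, 16.6 and 14.3 CPM in treated samples, and without mock replicate 2 the log2 difference went from -2.90 to -1.0. Ch25h, cholesterol 25-hydroxylase, was at 5.25 and 50.6 against 2.71, 3.27 and 3.27 CPM, and the neurotrophic factor Gdnf at 2.92 and 25.5 against 0.77, 1.70 and 1.27 CPM. Cd55, Ch25h and Gdnf were chosen after their values were seen. Gdnf reached the low-count filter only in the mock samples, so it had to be lower in treated skin. Of 14 clock genes, a list also added after seeing the data, 12 had lower values and 2 were lower without overlap (8.49% of all genes): the clock output factor Dbp, at 5.25 and 49.1 against 4.83, 3.98 and 4.72 CPM, and Tef, at 33.6 and 88.0 against 21.8, 19.4 and 25.9 CPM. The clock median was -0.45, and -0.89 against mock replicate 2 but 0.10 against mock replicate 1, and Dbp differed by -0.19 against mock replicate 1. The hour of collection was not stated.

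**Figure D4:**
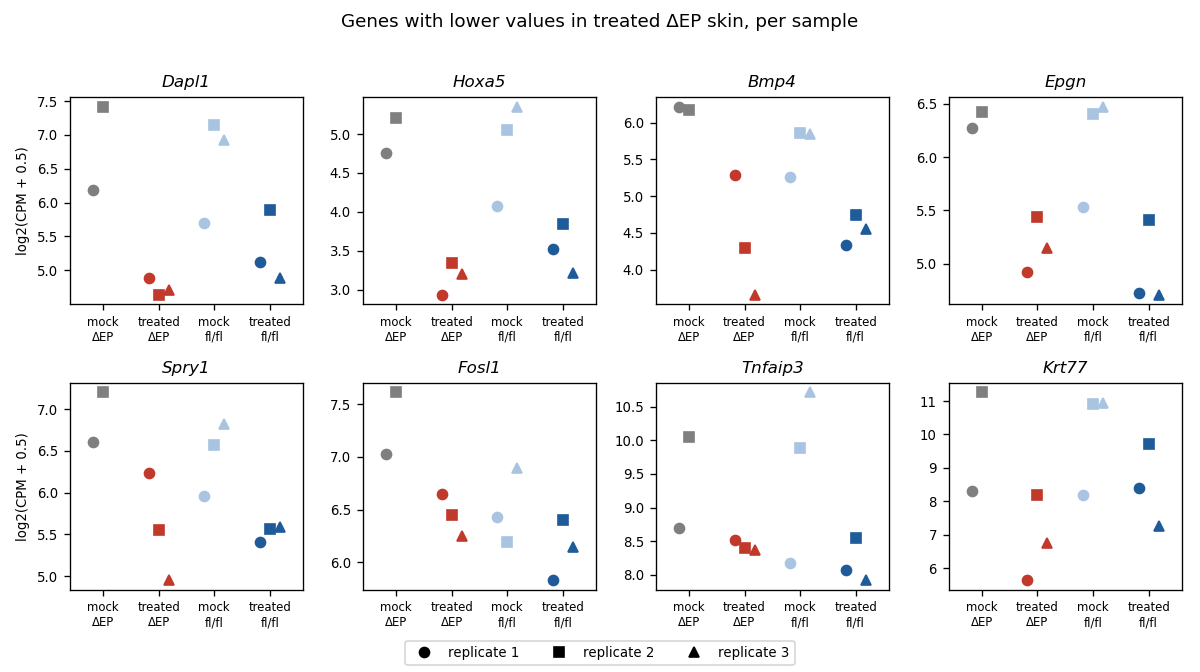
Levels of 8 genes, as log2(CPM + 0.5), in each mock and treated sample of Zfp36ΔEP (grey and red) and Zfp36fl/fl epidermis (light and dark blue), with marker shapes for replicates. The 3 treated Zfp36ΔEP samples lie below both mock Zfp36ΔEP samples in all 8 panels, with a narrow gap for Tnfaip3 and Krt77.

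Metabolic groups held few separated genes. Hypoxia and glycolysis genes had 14 of 16 members higher with a median of 0.50 (0.38 and 0.58 against mock replicates 2 and 1), and 3 were higher without overlap (7.68% of all genes). These were the glycolytic enzymes Pgk1 (71.5 and 50.6 against 95.8, 88.2 and 144 CPM), Eno1 (125 and 131 against 170, 182 and 337 CPM) and Ldha (263 and 227 against 307, 328 and 468 CPM). The hypoxia-responsive peptide adrenomedullin, Adm, lay on the other side at 17.8 and 14.9 against 10.6, 5.82 and 4.54 CPM. In the NRF2 and glutathione list, which holds antioxidant defence genes, 3 of 15 were higher without overlap, against the same 7.68%. The median was 0.40 (0.46 and 0.58 against mock replicates 2 and 1). The 12 members that reached the low-count filter in mock samples themselves had a median of 0.25. Of those 12, 1 was higher without overlap (8.33%, against 6.4% of all genes that reached it). Gpx2, a glutathione peroxidase, had 0.29 and 0.39 CPM in mock and 1.55, 6.96 and 4.35 CPM in treated samples, a ratio of 13.6 (counting interval 3.66 to 115). Sebaceous gland genes (12 tested) had a median of 0.36, and 0.56 and 1.42 against mock replicates 2 and 1. Without overlap 2 were higher, again against 7.68%. These were the lipid-synthesis genes Elovl3 (0 and 0.79 against 1.16, 7.81 and 4.17 CPM) and Far2 (27.4 and 17.7 against 37.7, 72.5 and 44.1 CPM). Only 5 sebaceous genes reached the low-count filter in mock samples themselves, with a median of 0.275 and 1 higher without overlap. The medians of the Wnt (17 tested), BMP (10), protein kinase C (8), interferon (5), tumor promotion (10), histone (68) and mitochondrial mRNA (13) lists lay between -0.34 and 0.26, and of these only protein kinase C genes kept 1 sign against each mock sample alone (0.44 and 0.18).

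The most uniform difference lay in repeat-like gene models, which resemble other transcripts or satellite DNA and are seldom of interest as genes. All 125 tested ribosomal protein pseudogenes (of 276) had lower values in treated skin, 116 (92.8%) without overlap against 8.49% of all genes, with a median log2 difference of -1.25. It was -1.10 against mock replicate 2 and -1.37 against mock replicate 1. All 11 tested satellite gene models were lower without overlap, against the same 8.49%, with a median of -3.41. Gm10717, among them, had 59 and 49 counts in mock and 4, 15 and 5 in treated samples. It passed the low-count filter only through the mock samples, where it is high, so it had to be lower in treated skin. How many other members of these lists did so was not counted. Rps24-ps3 was at 98.9 and 117 CPM in mock and 32.3, 30.5 and 41.5 CPM in treated samples. Gm10800, a satellite model on chromosome 2, was at 474 and 865 against 64.5, 122 and 61.0 CPM. A pair of single models had the same shape. Tpm3-rs7, a processed copy of a tropomyosin gene, was at 35.9 and 31.8 CPM in mock and 4.25, 7.52 and 6.71 CPM in treated samples (log2 -2.45 ± 0.34). Hist1h2al, annotated as a processed pseudogene, was at 22.5 and 16.1 against 2.71, 0.99 and 0.73 CPM (log2 -3.71 ± 0.58). Hist1h2al also passed the low-count filter only through the mock samples, so it had to be lower in treated skin. Reads of near-identical copies may be divided by the counting, so values of single members are uncertain.

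Ribosomal protein pseudogenes took 0.333% and 0.253% of all counts in mock Zfp36ΔEP samples and 0.152%, 0.118% and 0.156% in treated samples. In Zfp36fl/fl skin the share was 0.131%, 0.228% and 0.102% in mock and 0.112%, 0.212% and 0.0996% in treated samples, and mock and treated samples overlapped. The satellite models took 0.0716% and 0.117% of counts in mock Zfp36ΔEP samples, more than in any other mock or treated sample of either genotype. Their median difference in Zfp36fl/fl skin was -1.11, and that of the ribosomal pseudogenes -0.24. The mock Zfp36ΔEP samples were also the 2 with the lowest total counts among these 11 samples, and the part of depth in these shares was not tested.

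**Figure D5:**
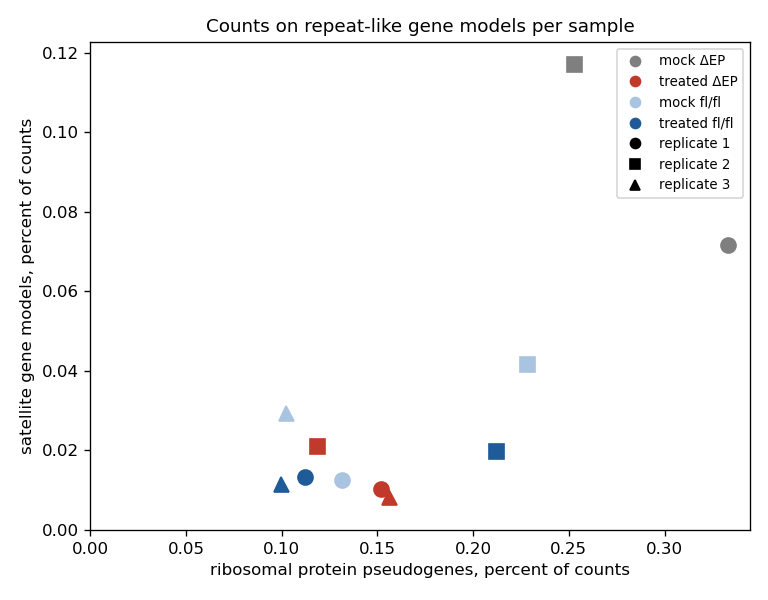
Percent of all counts on ribosomal protein pseudogenes (x axis) and on satellite gene models (y axis) in each mock and treated sample of both genotypes, colored by group, with marker shapes for replicates. The mock Zfp36ΔEP samples lie farthest from the origin on both axes, at 0.333% and 0.0716% for replicate 1 and 0.253% and 0.117% for replicate 2.

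Other cell types that the sort should remove were looked for by their markers. Fibroblast genes summed to 1250 and 1320 CPM in mock and 1210, 930 and 616 CPM in treated samples, carried by Dcn at 1053 and 82.5 against 907, 251 and 376 CPM and by Col1a1 at 30.9 and 613 against 63.4, 281 and 43.4 CPM. None of the 10 tested fibroblast genes separated the groups. Endothelial genes summed to 45.2 and 29.4 against 21.6, 22.9 and 13.4 CPM, with Pecam1 (CD31, used in the sort) at 37.9 and 17.3 against 10.1, 12.3 and 6.89 CPM. Of 3 tested endothelial genes, 2 were lower without overlap (8.49% of all genes), Pecam1 and Eng. Eng was at 3.21 and 3.53 against 2.125, 1.99 and 1.63 CPM. Flt1 lay on the other side with overlap (log2 0.82). Muscle genes summed to between 6.28 and 10.8 CPM, and Merkel cell genes to between 0.39 and 6.13 CPM with Atoh1 and Isl1 at 0 in all 5 samples.

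The same treatment in Zfp36fl/fl littermates gave the reference for genotype. There, too, no gene of 16601 was called, with 913 at an unadjusted p under 0.05 (edgeR quasi-likelihood test). A test of whether the treatment difference depended on genotype found 0 of 17694 genes (0%) at an adjusted p under 0.05 with a fold over 2, and 257 at an unadjusted p under 0.05. Across 15542 genes tested in both genotypes the log2 differences had a correlation of 0.591. Genes are not independent replicates, and the 2 genotypes share the gap between mock replicate 1 and the others. Without mock replicate 1 of either genotype the correlation was 0.752.

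Krt6a was higher after treatment in both genotypes, with a log2 difference of 2.52 in Zfp36fl/fl skin against 3.49 in Zfp36ΔEP skin. Its level was 18.0, 36.9 and 26.6 CPM in mock and 166, 147 and 148 CPM in treated Zfp36fl/fl samples. Krt17 (1.20 against 1.45) and Sprr1a (1.61 against 1.65) also had positive values in both. S100a8 was low throughout the control genotype, at 1.78, 0.20 and 0.29 CPM in mock and 1.30, 2.63 and 0.78 CPM in treated samples, and its difference was 0.92 there against 7.57. The dependence on genotype had an unadjusted p of 0.00307 for S100a8, of 0.00323 for S100a9, of 0.00429 for Chil1 and of 0.00847 for Krt6b, all with an adjusted p of 1 in the edgeR quasi-likelihood test, so none was called. The study had named S100a8, S100a9 and Chil1 for a difference between genotypes in these treated samples, so their p-values are no independent evidence. Over the 9 activated epidermis genes tested in both genotypes, the median was 0.92 in Zfp36fl/fl and 2.5 in Zfp36ΔEP skin. The 9 include S100a8, picked by the study, whose value of 0.92 equals that median. Only 5 reached the low-count filter in mock Zfp36ΔEP samples themselves, so the gap between medians is no independent evidence. Of those 5, Krt6a, Krt17 and Sprr1a are given above. Krt6b and Krt16 had -0.19 and -0.30 in Zfp36fl/fl and 3.15 and 2.21 in Zfp36ΔEP skin. Of the lower genes, Epgn (-1.22 and -1.17), Hoxa5 (-1.40 and -1.88), Bmp4 (-1.13 and -1.65) and Dapl1 (-1.35 and -2.20) had negative values in both genotypes. Hist1h2al and Tpm3-rs7 had positive values in Zfp36fl/fl skin (3.57 and 0.49), which rested on treated replicate 3. For Hist1h2al the treated Zfp36fl/fl samples were at 1.30, 2.19 and 28.8 CPM and the mock samples at 0.78, 1.38 and 0.68 CPM. For Tpm3-rs7 they were at 5.32, 5.48 and 18.0 against 4.88, 10.2 and 5.90 CPM. The pair had unadjusted p-values for dependence on genotype of 0.000984 and 0.00237 in the same test.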

How the data were processed

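RNA-seq of EpCAM+ CD45- CD140a- CD31- epidermal cells was analyzed as deposited, in raw counts per Ensembl gene that the authors had made from Ovation SoLo libraries (RNeasy Plus Micro RNA, Illumina HiSeq). The submitters' processing notes list Trimmomatic 0.36, STAR 2.5.3, HTSeq 0.9.1, DESeq2 and mm10 without role or order. The deposited table is named for another counter, featureCounts. Strand, annotation release and removal of duplicate reads are not given in the sources used here. Positions came from a GENCODE annotation of the same build.

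The 3 treated and 2 distinct mock Zfp36ΔEP samples were fitted alone with edgeR 4.0.16 in R 4.3.3 (filterByExpr at defaults, TMM, quasi-likelihood test, two-sided, Benjamini-Hochberg adjustment). A call needed an adjusted p under 0.05 and a fold over 2. CPM of Zfp36ΔEP mock and treated samples were taken on TMM-scaled totals of these 5 samples, and all other CPM on those of a fit of all 17 samples. The dependence on genotype was a contrast over the mock and treated samples of both genotypes. A fold against mock samples without counts is a bound set by a floor of 3 counts per sample, and a ratio resting on 1 to 3 mock counts has a 95% exact conditional interval. Scripts were tested on simulated data.

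The genes, 43 lists and tests were chosen with earlier results of these data known. Named were the Zfp36 family, the study's genes for treated skin, up to 3 members of each list with the smallest p in each direction, up to 12 genes in each direction with the smallest p without overlap, up to 5 for genotype dependence, genes called without either mock sample (none), up to 6 most different between mock samples, and up to 6 called by an alternative. Not all of these are printed, and genes outside the rule include Krt16, Krt17, Krt1, Krt10, Krt5, Mki67, Top2a, Dct, Dcn, Ivl, Tgm1, Dsc1, Sprr1a, Serpinb3b, Il1f9, Stfa1 and Icam1, chosen after their values were seen like those marked in the text. Alternatives were DESeq2 1.42.0, the exact test, RLE scaling, other filters, wider fits, the replicate block and leaving out each sample.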

Additional observations from a re-analysis of the deposited data

How the results depend on the processing

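The count of 0 called genes in treated against mock Zfp36ΔEP skin was also found with RLE scaling, a mean count of at least 10, fits of more samples, the identical mock columns counted separately, and each of the 5 samples left out in turn (0 to 0 calls). Genes at an unadjusted p under 0.05 numbered 763 and went from 311 without treated replicate 2 to 3065 without mock replicate 1. The count was 212 with no low-count filter, when 32416 genes were tested, 71 with DESeq2, 67 with the exact test, 43 with the replicate block and 1911 with a term for mock replicate 1 of either genotype over mock and treated samples of both. The cause was not tested. The 4 alternatives without filter, with DESeq2, with the exact test and with the block shared 22 calls, 14 higher, among them Krt6b, S100a8, S100a9, Klk6, Serpinb3a and Stfa3, and 8 lower, among them 7 Gm models and Hist1h2al. Samples share only a replicate number, so the replicate block is no paired analysis. Deviations of mock replicate 1 correlated at 0.618 with those of treated replicate 1. Those of mock replicate 2 correlated at 0.137 with treated replicate 2 and at 0.522 with treated replicate 3. With only 2 mock samples their deviations mirror each other, so these values cannot decide whether replicates were paired. The genotype dependence had 0 calls under every alternative. Over all 15891 tested genes, 9093 (57.2%) took opposite signs in the fits that left out 1 mock sample or the other. For the 91 named genes with an unadjusted p under 0.05, 2 of 1343 values changed sign, both without mock replicate 2: Slc6a4 (-2.86, range -3.80 to 1.27) and Nr1d1 (-2.29, range -3.17 to 0.65). No gene was called as reported, so no call could be lost, and 232 of these values passed the threshold under an alternative. Depth limits genes with few mock counts, such as S100a8, Klk6 and Rnase2b, whose folds are bounds or rest on 0 to 5 counts a sample.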
